A study of Sus scrofa with 10 samples.

Results

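The 7 genes C1QA, C1QB, CSF1R, CX3CR1, P2RY12, AIF1 and PTPRC are the classical receptor, complement and marker genes of microglia, the resident macrophages of the brain. They were chosen by name, and all 7 were found among the 22452 genes of the pig entorhinal data. Their level was followed in 10 single cell libraries, in the microglia-like cells of each library, in isolated nuclei and in the cells that should lack them. The fetuses were from Danish Landrace/Yorkshire sows crossed with Duroc boars and the adult brains from sows, with no treatment other than dissociation and no genotype given in the labels. Whole cells freed with papain were captured at embryonic day 50 (E50, 1 library of 3 pooled brains), E60 (3 libraries of 1, 1 and 2 brains), E70 (3 libraries of 2, 1 and 1 brains) and from the adult brain (1 library of 1 brain). Nuclei of snap-frozen tissue, sorted on the DNA dye 7-AAD, made up 1 library at E70 (E70_nc) and 1 from the adult (Adult_nc), each from 1 brain. The exact age behind the label adult is uncertain, since the study describes these animals both as sows and by a postnatal day. Replicate libraries exist for the whole cells of E60 and E70, and the other stages have no replicate check.

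Microglia derive from yolk sac progenitors that enter the brain before birth. CSF1R is the receptor for CSF1 and IL34 and keeps these cells alive. CX3CR1 binds fractalkine, which neurons display, and P2RY12 is a purine receptor that guides microglial processes toward released ADP and ATP. C1QA and C1QB encode chains of C1q, the protein that starts the classical complement pathway and tags synapses for removal. AIF1 encodes the actin-bundling protein IBA1, a common histological stain for microglia, and PTPRC encodes CD45, the phosphatase found on leukocytes. Of the 7, P2RY12 and CX3CR1 are held to mark resident microglia more closely, whereas PTPRC and the C1q genes are also used by other leukocytes or macrophages.

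On the pig genome Sscrofa11.1 (RefSeq annotation) C1QA lies on chr6:80586259-80589213 and C1QB on chr6:80601680-80606076, both on the plus strand and on either side of C1QC (chr6:80592591-80597464), which encodes the remaining chain of C1q. CSF1R lies on chr2:151102138-151130311, CX3CR1 on chr13:23944386-23957567 and P2RY12 on chr13:91522754-91572195, all on the minus strand. AIF1 lies on chr7:23711752-23731191 and PTPRC on chr10:21482984-21601627, on the plus strand. The genes differ in how much of them is intron. The exons of the longest transcript cover 51.7% of C1QA and 24.4% of C1QB but 11.5% of P2RY12 and 4.37% of PTPRC. The whole of P2RY12, 49442 bases, lies inside MED12L, a gene of the transcriptional Mediator complex on the other strand. AIF1 shares 1236 bases with LST1 on the same strand and 3656 with NCR3 on the other strand, and CX3CR1 shares 3139 with a long noncoding RNA on the other strand. Reads in the stretch shared with LST1 can be assigned to either gene or dropped. For genes on the other strand this holds only where the counting ignores the strand. Whether it used the strand is not given in the sources used here. The study mapped its reads to unspliced transcripts, so reads in introns were counted too.

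Many microglial genes carry the motif GAGGAA, the core that the myeloid factor SPI1 (PU.1) binds. In the 300 bases before the annotated start it was found, on either strand, in 26.3% of 19556 protein-coding genes. Of the 7 genes, C1QB and AIF1 held it in this window, and C1QC held it at 2 places. The other 5 genes had no match in this window, which says nothing about SPI1 binding elsewhere. The matches are shown 5′ to 3′ on the strand of the gene, with the motif, or its reverse complement TTCCTC, in capitals.
C1QB (chr6:80601413-80601438, 257 bases before the start): gtttgcatttGAGGAAcacccctgtt
AIF1 (chr7:23711652-23711677, 90 bases before the start): gtcagccagtGAGGAAacgcctgctg
C1QC (chr6:80592387-80592412, 194 bases before the start): gggttataacTTCCTCctggggatct
C1QC (chr6:80592565-80592590, 16 bases before the start): agtgaacaatTTCCTCatttcggaca
The longer motif GAGGAAGT was held by 1.95% of the promoters. Among the 7 genes and C1QC it was found in C1QC alone, where it overlaps the match 194 bases before the start. The C1q genes thus differ in this window, although C1QC followed C1QA and C1QB closely in level, as given further on.

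The 10 libraries held 28229 cells and nuclei. Their total counts of unique molecular identifiers (UMIs, each 1 captured RNA molecule) ran from 2336865 in Adult_nc to 55755512 in E50_1. Counting precision is therefore lowest in the nuclei, where a cell had a median of 690 UMIs in the adult and 2616 at E70, against 4251 to 9403 in the whole cell libraries. At most 57 barcodes were shared by a pair of libraries. By EMX1, a gene of the dorsal forebrain, E60_1 and E60_2 stood apart from the others. EMX1 was at 0.482 and 0.511 CPM there (counts of the gene per 1000000 UMIs). It was between 8.39 and 40.6 CPM in the other 5 fetal whole cell libraries and at 2.48 CPM in Adult_1. PAX7 grouped the libraries otherwise. It was at 20.05 CPM in E50_1, 29.96 CPM in E60_2, 30.25 CPM in E70_1 and 27.91 CPM in E70_2. In E60_1, E60_3, E70_3 and Adult_1 PAX7 was at 3.74, 4.48, 5.06 and 7.43 CPM. Whether E60_3 matches the E70 libraries in region was not tested. The comparisons of E60 with E70 for the 7 genes and for the share of microglia-like cells are given with E60_3 as the only E60 library too, and those for the pathway lists were not run that way.

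Clusters made without the 7 genes named 2567 cells microglia-like, in 13 subclusters, by 18 other markers such as TYROBP, FCER1G, C1QC and GPR34. They were 2.09% of the cells in E50_1, 14.3% in E60_1, 13.6% in E60_2 and 5.08% in E60_3. They were 4.06%, 3.24% and 3.14% in E70_1, E70_2 and E70_3 and 28.8% in Adult_1. Of the nuclei, 12.4% were microglia-like in the adult (95% confidence interval, CI, 11.2 to 13.8%) and 0.699% at E70, which were 6 nuclei (CI 0.257 to 1.52%). These intervals are exact binomial intervals and cover counting error only. All 3 E60 libraries lay above all 3 E70 libraries, with means of 11 ± 5.14% and 3.48 ± 0.502% (SD, n = 3 each). This gave p = 0.1 in an exact two-sided permutation test over libraries, the smallest p that 3 against 3 allows. Within the sequencing pools that E60 and E70 shared, the share was 14.3 against 4.06% in the pool of E60_1 and E70_1 and 5.08 against 3.14% in the pool of E60_3 and E70_3. With E60_3 as the only E60 library the difference of 7.52 percentage points became 1.602 (p = 0.25, exact permutation, the smallest that 1 against 3 allows).

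Each of the 7 genes was far above the level of other cells in the microglia-like cells of every whole cell library. As the clusters rest on genes that vary with these, the following levels are a description and were not tested between cell types. A microglia-like cell held UMIs of a median of 6 to 7 of the 7 genes in the 8 whole cell libraries, and none of these cells lacked all 7. In nuclei the median was 2 genes, and 38 of 317 adult nuclei (12.0%) held no UMI of the 7. In the whole cell libraries the microglia-like cells held between 73.3% (E70_2) and 91.9% (E60_1) of all UMIs of the 7 genes.

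C1QA, the A chain of C1q, was at 2760.1 CPM in the microglia-like cells of E50_1. It was at 1834, 1862 and 691 CPM in E60_1, E60_2 and E60_3, at 735, 861 and 1148 CPM in E70_1, E70_2 and E70_3, and at 3036 CPM in Adult_1. The levels at E50 and in the adult were above all 6 values of E60 and E70, and the value of E60_3 was the lowest of the 8. C1QB, the B chain, was at 5588 CPM in E50_1, at 4512, 4324 and 974.6 CPM in the E60 libraries, at 1621, 1947 and 1799.8 CPM in the E70 libraries and at 4767 CPM in Adult_1. The order of the libraries was alike for both chains, with E60_1 and E60_2 between E50 or adult and the E70 libraries and with E60_3 at the bottom. For C1QA this place depended on subclusters that also held markers of other cell classes. Without them C1QA was at 921 CPM in E60_3, above E70_1 (757 CPM) and E70_2 (873 CPM). C1QB was then at 1390 CPM in E60_3, still the lowest fetal value. The exact 95% Poisson intervals of the single libraries were narrow, for example 2942 to 3133 CPM for C1QA in Adult_1, but they hold no variation between animals.

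CSF1R, the survival receptor, was at 828 CPM in E50_1, at 630.5, 554 and 349.7 CPM in the E60 libraries, at 457, 734 and 358 CPM in the E70 libraries and at 980.5 CPM in Adult_1. The E60 and E70 values overlapped, and the adult value was the highest. CX3CR1, the fractalkine receptor, was at 264 CPM in E50_1, at 222, 311 and 111 CPM at E60, at 197, 149 and 168 CPM at E70 and at 485 CPM in Adult_1. Here too the adult value stood above all 7 fetal values, of which the highest was in E60_2.

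P2RY12, the purine receptor, was at 404 CPM in E50_1, at 379, 405 and 522 CPM at E60, at 320.1, 360.4 and 827 CPM at E70 and at 831 CPM in Adult_1. PTPRC, or CD45, was at 198 CPM in E50_1, at 158, 171 and 467 CPM at E60, at 288, 251 and 599.9 CPM at E70 and at 450.4 CPM in Adult_1. For both genes the highest fetal values were in E60_3 and E70_3, the libraries of 1 sequencing pool, and the other 5 fetal libraries lay between 320.1 and 405 CPM for P2RY12 and between 158 and 288 CPM for PTPRC. Both genes were thus higher at both stages in this pool than in the pool of E60_1 and E70_1, with 1 library per stage in each. AIF1, or IBA1, ran otherwise, with 1587 CPM in E50_1, 1811, 1375 and 474 CPM at E60, 644, 747 and 882 CPM at E70 and 787 CPM in Adult_1. AIF1 and C1QB were the 2 genes whose adult value was below that of E50, and E60_3 was again the lowest whole cell library for AIF1. All 212 microglia-like cells of Adult_1 were in a subcluster that also held oligodendroglial markers, so no adult whole cell value could be had without such cells.

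**Figure D1:**
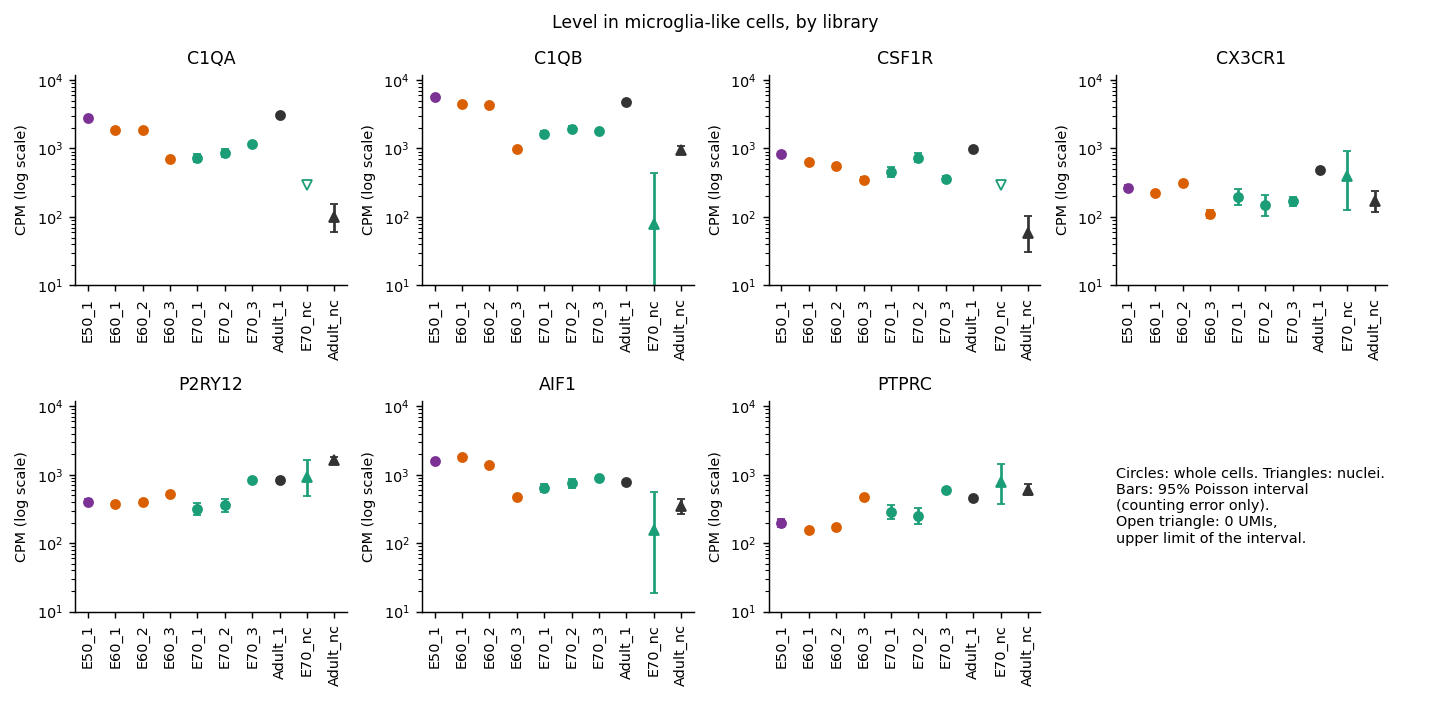
Level of each of the 7 genes in the microglia-like cells of each library, in CPM on a log axis, with whole cells as circles and nuclei as triangles. Bars are 95% Poisson intervals, which cover counting error only, and open triangles mark the upper limit where no UMI was found. C1QA, C1QB, CSF1R and AIF1 are lower in the adult nuclei than in the adult whole cells, and P2RY12 is higher.

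When each cell was drawn down to 1000 UMIs, the share of microglia-like cells that would keep a UMI of C1QB was 96.5% in E50_1, 62.4 to 95.9% at E60, 66.2 to 81.2% at E70 and 96.2% in Adult_1. The same shares for P2RY12 were 32.1%, 32.1 to 42.6%, 24.97 to 51.5% and 55.0%, and for PTPRC 19.4%, 15.2 to 38.2%, 18.4 to 43.5% and 34.4%. All microglia-like whole cells had at least this depth. Without drawing down, 93.9%, 80.7 to 95.6%, 80.0 to 98.0% and 97.2% of them held a UMI of P2RY12. In neuron-like cells, which should lack these genes, the drawn-down shares in the whole cell libraries were 0.184 to 9.05% for C1QB, 0.564 to 2.95% for P2RY12 and 0.267 to 2.61% for PTPRC.

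The subclusters of the microglia-like cells followed the libraries closely. E60_1 and E60_2 filled most of 7 of them, and Adult_1, Adult_nc, E50_1 and E60_3 each filled most of 1. E70_1 and E70_2 together filled most of 1 with 37 cells. The subcluster of 197 cells that E60_3 (102 cells) and E70_3 (94 cells) shared had PTPRC at 598 and 628 CPM, P2RY12 at 708 and 866 CPM and C1QA at 921 and 1184 CPM in these libraries. It also held TNF at 251 and 356 CPM and IL1A at 340.1 and 405 CPM, both inflammatory cytokines. In the microglia-like cells of the other fetal libraries outside the mixed subclusters, TNF was between 8.91 and 33.0 CPM and IL1A between 9.38 and 36.2 CPM. The list of dissociation response genes summed to 499.5 and 416 CPM in E60_3 and E70_3, to 175 to 698 CPM in the other fetal libraries and to 2709 CPM in Adult_1. The part of activation during dissociation in the levels of P2RY12 and PTPRC was not tested.

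Among the other immune cells, 41 cells of Adult_1 had markers of lymphocytes beside those of microglia. They held C1QA at 2013 CPM and PTPRC at 571.5 CPM, but P2RY12 at 124 CPM and CX3CR1 at 80.1 CPM. UMIs of C1QA were in 18 of the 41 cells, of P2RY12 in 11, of CX3CR1 in 13 and of PTPRC in 36, so the C1QA level came from fewer than all of them. In the microglia-like cells of this library P2RY12 was at 831 and CX3CR1 at 485 CPM. In the 17 other immune cells of E60_1 P2RY12 was at 29.6 CPM and CX3CR1 at 59.3 CPM, against C1QA at 1644 CPM. P2RY12 and CX3CR1 were thus lower than in the microglia-like cells of the same library in both, and C1QA was lower too, by a smaller factor. These are clusters of few cells and were left out of the microglia-like class.

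The first comparison between stages took whole libraries at E60 and E70, in which both the number of microglia and the RNA per microglial cell count. In bulk sums like these, fewer cells of a type and less RNA per cell cannot be told apart. Summed over the 7 genes, the level was 1438, 1089 and 299 CPM in E60_1, E60_2 and E60_3 and 261, 225 and 244 CPM in E70_1, E70_2 and E70_3. C1QA was at 273, 222 and 54.0 CPM at E60 and at 35.3, 31.1 and 44.3 CPM at E70. C1QB was at 665, 512 and 75.7 CPM at E60 and at 77.8, 69.2 and 68.8 CPM at E70. AIF1 was at 276.5, 171 and 40.5 CPM at E60 and at 35.3, 29.8 and 36.3 CPM at E70. In these 3 genes E60_1 and E60_2 were several times above the rest, whereas E60_3 lay near the E70 libraries.

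CSF1R was at 94.4, 67.4 and 28.6 CPM at E60 and at 24.9, 27.8 and 14.4 CPM at E70, and CX3CR1 at 34.0, 38.2 and 10.95 CPM and at 15.5, 10.5 and 8.90 CPM. P2RY12 was at 69.2, 55.5 and 47.8 CPM at E60 and at 39.0, 33.5 and 42.0 CPM at E70. PTPRC was at 25.6, 23.2 and 41.6 CPM and at 32.8, 23.6 and 28.8 CPM, so that its E60 and E70 values overlapped. C1QA, CSF1R, P2RY12 and AIF1 had all 3 E60 values above all 3 E70 values, 4 of the 7 genes, against 11.5% of the 16743 genes tested.

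Although all 7 log2 fold changes (E70 over E60) were negative, none of the 7 genes passed an adjusted p of 0.05 in the quasi-likelihood test of edgeR. Neither did any of the 16743 genes (0%). With library totals in place of TMM the median of all genes moved from -0.06 to 0.12, and all 7 fold changes stayed negative with none called. At an unadjusted p under 0.05 were 6 of the 7 genes and 29.4% of all genes. The log2 fold changes were -2.57 ± 0.62 (SE) for C1QA, -2.81 ± 0.75 for C1QB, -2.53 ± 0.66 for AIF1 and -1.76 ± 0.52 for CSF1R, each at an adjusted p of 0.122. They were -1.54 ± 0.54 for CX3CR1, -0.80 ± 0.29 for P2RY12 and -0.26 ± 0.28 for PTPRC, at adjusted p of 0.135, 0.138 and 0.534. The median over the 7 genes was -1.76, beside -0.06 over all genes tested. With DESeq2 4 of the 7 genes passed (C1QA, C1QB, CSF1R and AIF1) and 2833 genes in all. With edgeR, calls of the 7 genes depended on E60_3. Without it 6 of the 7 genes passed, all but PTPRC, beside 5902 of the 17019 genes tested. With E60_3 as the only E60 library, taken to vary like the E70 libraries, the 7 fold changes lay between -0.56 and 0.07 and none passed. Within pools the summed level was 5.52-fold higher in E60_1 than in E70_1 and 1.23-fold higher in E60_3 than in E70_3.

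The second comparison took the microglia-like cells alone, at 1168, 474 and 137 cells in the E60 libraries and 20, 20 and 98 cells in the E70 libraries. It asks whether the level per microglial RNA differed, apart from the number of the cells. None of the 7 genes passed the edgeR test, at 0 of 11268 genes called (0%), and none of the 7 was at an unadjusted p under 0.05, against 17% of all genes. The log2 fold changes were -0.81 ± 0.49 for C1QA, -1.02 ± 0.57 for C1QB, -0.83 ± 0.53 for AIF1 and -0.45 ± 0.48 for CX3CR1, at adjusted p of 0.428, 0.385, 0.446 and 0.669. They were -0.11 ± 0.45 for CSF1R, 0.15 ± 0.45 for P2RY12 and 0.51 ± 0.51 for PTPRC, at adjusted p of 0.939, 0.907 and 0.647. The median over the 7 genes was -0.45, beside -0.07 over all genes. In none of the 7 were all E60 values above all E70 values, against 9.55% of all genes, nor the reverse. DESeq2 called none of the 7 and 696 genes in all.

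**Figure D2:**
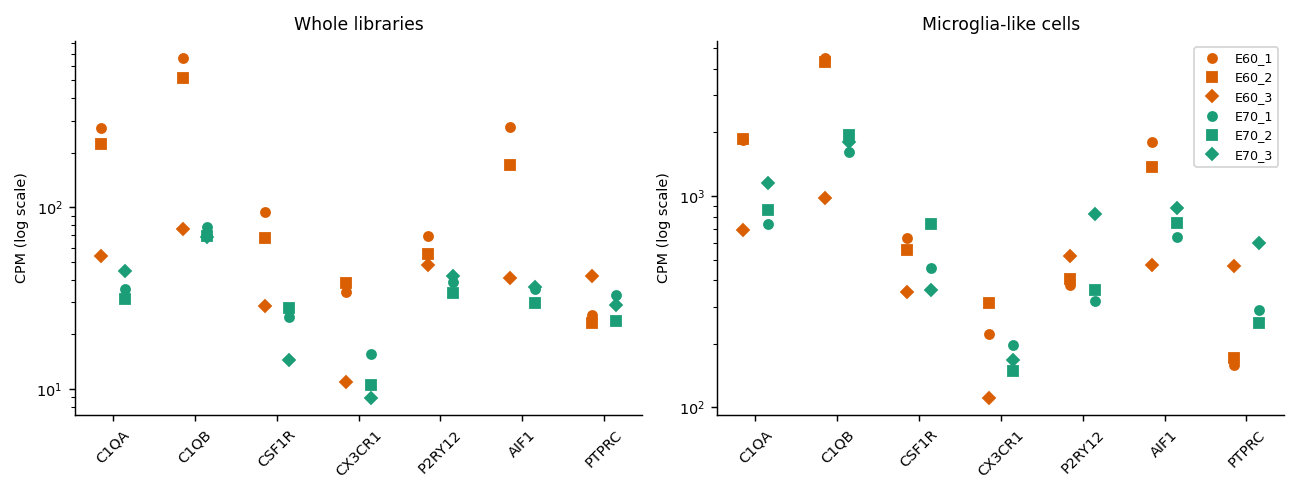
Level of the 7 genes in the 3 E60 and 3 E70 whole cell libraries, over all cells (left) and in the microglia-like cells (right), in CPM on log axes, with 1 point per library. In whole libraries E60_1 and E60_2 stand above the rest for C1QA, C1QB and AIF1, and E60_3 lies near the E70 libraries. In the microglia-like cells the E60 and E70 points overlap for every gene.

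The direction in the microglia-like cells differed between the pools. In the pool of E60_1 and E70_1 the summed level was 9548 and 4263 CPM, 2.24-fold higher at E60, and 6 of the 7 genes were higher at E60. In the pool of E60_3 and E70_3 it was 3589.7 and 5783 CPM, and all 7 genes were higher at E70, for example AIF1 at 474 and 882 CPM. Without the mixed subclusters described below, CSF1R in this pool was higher at E60, at 412 and 367 CPM. PTPRC was then close, at 598 and 628 CPM, and the other genes stayed higher at E70, with AIF1 at 644 and 927 CPM. Markers of other cells moved with these libraries. The list of 6 erythroid genes summed to 16729, 27871 and 8039 CPM at E60 and to 528, 272 and 636 CPM at E70 in these cells, and its part in the results was not tested. The list of 12 astroglial genes summed to 1452, 1735 and 421 CPM and to 186, 207 and 180.2 CPM. Mixed subclusters, in which markers of astroglia, neurons, erythroid cells or oligodendroglia stood out, held 35.5%, 65.6% and 25.5% of the microglia-like cells at E60 and 10%, 5% and 4.08% at E70. Without them the log2 fold changes were -1.27 for C1QA and -1.47 for C1QB, but none of the 7 genes passed (adjusted p of 0.193 and 0.189, edgeR).

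The other genes of microglial pathways gave no call with edgeR either, in either direction and in either comparison. The list counts and medians that follow stand beside 17% of all genes at an unadjusted p under 0.05 and a median of -0.07 over all genes. In the microglia-like cells, 12 of 22 listed genes of complement and its receptors were tested, of which 2 were at an unadjusted p under 0.05, with a median log2 fold change of 0.23. C1QC was at 1735 CPM in E50_1, 1468, 1616 and 359.5 CPM at E60, 521, 637 and 659 CPM at E70 and 1729 CPM in Adult_1. ITGB2, the beta chain of the complement receptors CR3 and CR4, was at 207 CPM, at 175, 143 and 102 CPM, at 66.8, 167 and 126 CPM and at 295 CPM. Like C1QA and C1QB, C1QC was lowest in E60_3 among the whole cell libraries. Of the receptors and adaptors 22 of 30 genes were tested, with 2 at an unadjusted p under 0.05 and a median of -0.28. FCER1G, an adaptor of Fc receptors, had a log2 fold change of -1.04 ± 0.54 (adjusted p = 0.357), and TYROBP, the adaptor of TREM2, of -0.51 ± 0.46 (adjusted p = 0.603).

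Of the ligands of these receptors 6 of 9 genes were tested in the microglia-like cells, with 1 at an unadjusted p under 0.05 and a median log2 fold change of 0.13. CD47, the signal that holds back phagocytosis, was at 109.7, 89.8 and 183 CPM at E60 and at 102, 79.1 and 142 CPM at E70. ENTPD1, which degrades the ATP and ADP that P2RY12 senses, was at 77.7, 107 and 105 CPM and at 134, 149 and 174 CPM. Its log2 fold change was 0.59 ± 0.38 (adjusted p = 0.447, edgeR). Of the 12 transcription factors 10 were tested, with 0 at an unadjusted p under 0.05 and a median of -0.20. MEF2A had a log2 fold change of -0.18 ± 0.40 (adjusted p = 0.854), and RUNX1 of 0.32 ± 0.53 (adjusted p = 0.804).

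Of the 16 other homeostatic genes 10 were tested in the microglia-like cells, with 2 at an unadjusted p under 0.05 and a median log2 fold change of -0.69. CST3, the protease inhibitor cystatin C, had -1.39 ± 0.83 (adjusted p = 0.419) and CD81, a membrane tetraspanin, had -0.67 ± 0.48 (adjusted p = 0.508). Of the 20 genes of the lysosome and antigen presentation 15 were tested, with 1 at an unadjusted p under 0.05 and a median of -0.46. SPP1, or osteopontin, was at 21812, 6685 and 7423 CPM at E60 and at 2997, 1991 and 9685 CPM at E70, with -1.42 ± 0.68 (adjusted p = 0.323). B2M, the light chain of MHC class I, was at 3441, 3783 and 1444 CPM and at 1899, 1762 and 1245 CPM.

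In adult nuclei 5 of the 7 genes were lower and 2 higher than in adult whole cells. C1QA was at 98.4 CPM in the microglia-like nuclei of the adult (20 UMIs) against 3036 CPM in the adult whole cells, a ratio of 0.0324 (95% CI 0.0198 to 0.0501). CSF1R was at 59.0 against 980.5 CPM, a ratio of 0.0602 (CI 0.0310 to 0.106). C1QB was at 954 against 4767 CPM, a ratio of 0.2002 (CI 0.173 to 0.231). C1QA was thus 30.9-fold and CSF1R 16.6-fold lower in the nuclei.

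CX3CR1 was at 172 against 485 CPM in the adult, a ratio of 0.355 (CI 0.245 to 0.499), and AIF1 at 344 against 787 CPM, a ratio of 0.438 (CI 0.339 to 0.558). P2RY12 was at 1658 CPM in nuclei against 831 CPM in whole cells, a ratio of 2.00 (CI 1.76 to 2.26), and PTPRC at 605 against 450.4 CPM, a ratio of 1.34 (CI 1.10 to 1.63). P2RY12 and PTPRC, the genes with the longest spans here, were thus the ones higher in nuclei. With 1 library on each side these intervals cover counting error only, and the ratio compares those libraries, which also differ in brain, dissociation and depth.

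The length of the gene with its introns ran in the same direction as the ratio, with Pearson's r of 0.729 on log values and Spearman's rho of 0.750 over the 7 genes. This is a description across 7 genes of the same pair of libraries. CSF1R, at 28174 bases, stood off this order, with a ratio near that of C1QA at 2955 bases. In the adult nuclei P2RY12 made up 42.6% of all UMIs of the 7 genes in microglia-like nuclei and C1QA 2.53%, against 7.33% and 26.8% in the adult whole cells.

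**Figure D3:**
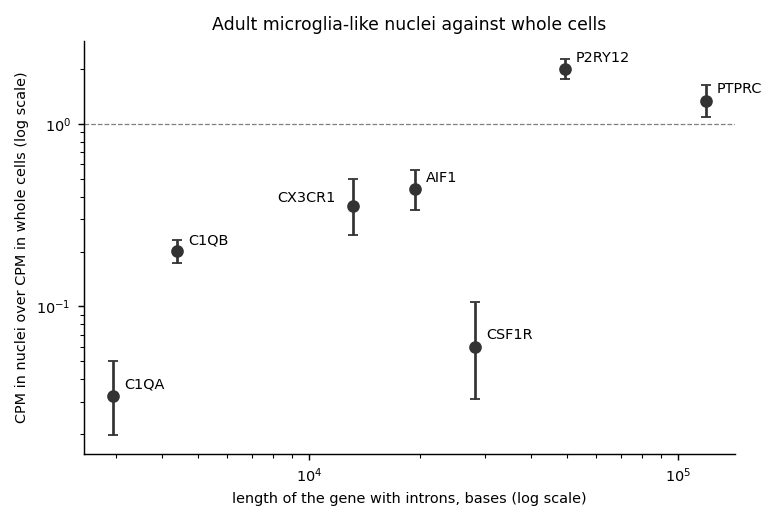
Ratio of the level in adult microglia-like nuclei to that in adult microglia-like whole cells for each of the 7 genes, against the length of the gene with its introns in bases, both on log axes. Bars are exact 95% intervals from the counts, and the dashed line marks equal levels. P2RY12 and PTPRC lie above the line, C1QA and CSF1R lowest.

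At E70 the 6 microglia-like nuclei held 30 UMIs of the 7 genes, of which 12 were P2RY12 and 10 PTPRC. C1QA and CSF1R had none, and 3 UMIs would have made 235 CPM. C1QA was at 735 to 1148 CPM in the E70 whole cells and 1028 CPM over all of them, 4.38-fold above this floor of 3 UMIs. CSF1R was at 433 CPM over all of them, 1.84-fold above the floor. The upper ends of the exact 95% intervals of the ratio of nuclei to whole cells were 0.281 for C1QA and 0.669 for CSF1R. The ratio for C1QB was 0.0438 (CI 0.0011 to 0.244, 1 UMI) and for AIF1 0.191 (CI 0.0232 to 0.693, 2 UMIs). For P2RY12 it was 1.42 (CI 0.730 to 2.49), for PTPRC 1.599 (CI 0.763 to 2.96) and for CX3CR1 2.29 (CI 0.737 to 5.41). The last 3 intervals include 1, so that a difference was not detectable at this depth.

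Outside the immune cells the 7 genes were seen at a low level in every library. In the cells of all other classes, neither microglia-like nor other immune cells, the summed level was 41.5 CPM in E50_1, 121, 130.4 and 42.0 CPM at E60, 71.8, 62.2 and 32.9 CPM at E70 and 163 CPM in Adult_1. UMIs of free RNA reach every droplet, and the level was set against the share of RNA that microglia-like cells held in each library, which ran from 2.48% (E50_1) to 17.8% (Adult_1). On log values Pearson's r was 0.833 (exact permutation p = 0.0175) and Spearman's rho 0.810 (exact permutation p = 0.0218) over the 8 whole cell libraries. Without E60_1 and Adult_1, the libraries farthest from the median share, r was 0.635 (exact permutation p = 0.181), so the relation no longer passed without them. With clusters made without batch correction r was 0.934 (exact permutation p = 0.00122) over the 8 libraries and 0.898 (exact permutation p = 0.0153) without the same 2, so whether it rests on them depends on the clustering. In each of the 4 pools with 2 whole cell libraries the one with the larger microglial share had the higher level. In other cells with no UMI of the 18 markers r was 0.501 (exact permutation p = 0.205).

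The relation differed among the 7 genes in value. Pearson's r was 0.840 for AIF1, 0.803 for C1QA, 0.791 for C1QB and 0.749 for CSF1R, each with an adjusted p of 0.0578 over the 7 genes (exact permutation). It was 0.498 for CX3CR1 and 0.390 for P2RY12 and -0.057 for PTPRC, at adjusted p of 0.289, 0.393 and 0.891 (exact permutation). Whether these r differ from each other was not tested. None of the 7 passed the adjusted threshold on log values. C1QA, C1QB, CSF1R and AIF1 passed it on linear values, at adjusted p between 0.0175 and 0.025 (exact permutation), and with no batch correction, at 0.0498 each (exact permutation).

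As a percentage of the level in the microglia-like cells of the same library, C1QA in other cells was at 0.192 to 1.26% (median 0.479%) over the 8 whole cell libraries and C1QB at 0.159 to 1.18% (median 0.425%). CSF1R was at 0.395 to 1.65% (median 0.965%) and AIF1 at 0.427 to 2.499% (median 1.19%). The values for CX3CR1 were 0.489 to 3.88% (median 1.71%), for PTPRC 1.19 to 7.19% (median 2.29%) and for P2RY12 1.51 to 8.03% (median 3.00%). The highest values of P2RY12 were in E70_1 and E70_2, with 25.7 and 22.5 CPM in the other cells. The makeup of the 7 genes differed between both kinds of cells, a difference whose cause was not tested. P2RY12 made up 35.8% of the UMIs of the 7 genes in the other cells of E70_1 and 7.51% in its microglia-like cells, and C1QA 3.23% and 17.2%. In E60_1 P2RY12 made up 15.9% and 3.97% and C1QA 15.9% and 19.2%.

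**Figure D4:**
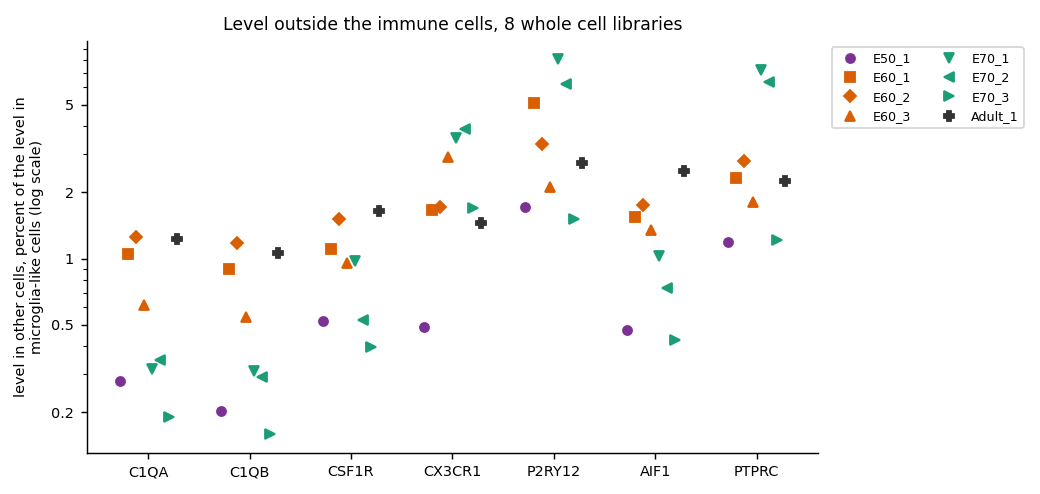
Level of each of the 7 genes in cells that are not immune cells, as a percentage of the level in the microglia-like cells of the same library, on a log axis with 1 point for each of the 8 whole cell libraries. By the median over libraries C1QA and C1QB lie lowest and P2RY12 and PTPRC highest, with E70_1 and E70_2 at the top of both. In E60_3 and E70_3 CX3CR1 lies above P2RY12 and PTPRC.

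Erythroid-like cells, in which the share of hemoglobin RNA was not measured, were taken as a further gauge of the free RNA in a droplet. Per 1000 cells they held 0 to 34.5 UMIs of P2RY12 in the 8 whole cell libraries, and neuron-like cells 57.7 to 361 UMIs. The neuron-like cells were above in 8 of 8 libraries for P2RY12, CSF1R and CX3CR1, in 7 of 8 for AIF1 and PTPRC and in 6 of 8 for C1QA and C1QB. In E70_3 the neuron-like cells had 13.3 UMIs of C1QA per 1000 cells and the erythroid-like cells 99.0, whereas for P2RY12 they had 82.7 and 9.90. The erythroid-like cells numbered from 29 in Adult_1 to 732 in E60_1, so many of these values rest on few UMIs.

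P2RY12 was higher in astroglia-like than in neuron-like cells in 10 of 10 libraries, with 13.5 against 5.94 CPM in E50_1, 26.6 against 14.2 CPM in E60_1, 14.4 against 9.76 CPM in E70_3 and 32.9 against 25.7 CPM in Adult_1. MED12L, the gene that P2RY12 lies within, showed the same order in 10 of 10 libraries, with 85.8 against 39.0 CPM in E50_1, 293 against 85.8 CPM in E60_1, 117 against 41.6 CPM in E70_3 and 347 against 77.0 CPM in Adult_1. In erythroid-like cells MED12L was at 0 to 29.2 CPM and P2RY12 at 0 to 6.72 CPM. In vascular-like cells P2RY12 was at 13.9 CPM in E60_3 and 30.2 CPM in E70_3, above the astroglia-like cells of these libraries. MED12L was there at 28.6 and 37.6 CPM, below the neuron-like cells (37.3 and 41.6 CPM). Oligodendroglia-like cells of E50_1 had MED12L at 146 CPM, above astroglia-like cells, but P2RY12 at 12.2 CPM, below them. In E60_1 the reverse held, with MED12L at 153 CPM and P2RY12 at 30.5 CPM. In E60_2, E70_3, Adult_1 and both nuclei libraries the genes ran the same way in these classes. C1QA was higher in astroglia-like than in neuron-like cells in 2 of 10 libraries and PTPRC in 0 of 10. The part of MED12L transcripts in the counts of P2RY12 was not tested.

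**Figure D5:**
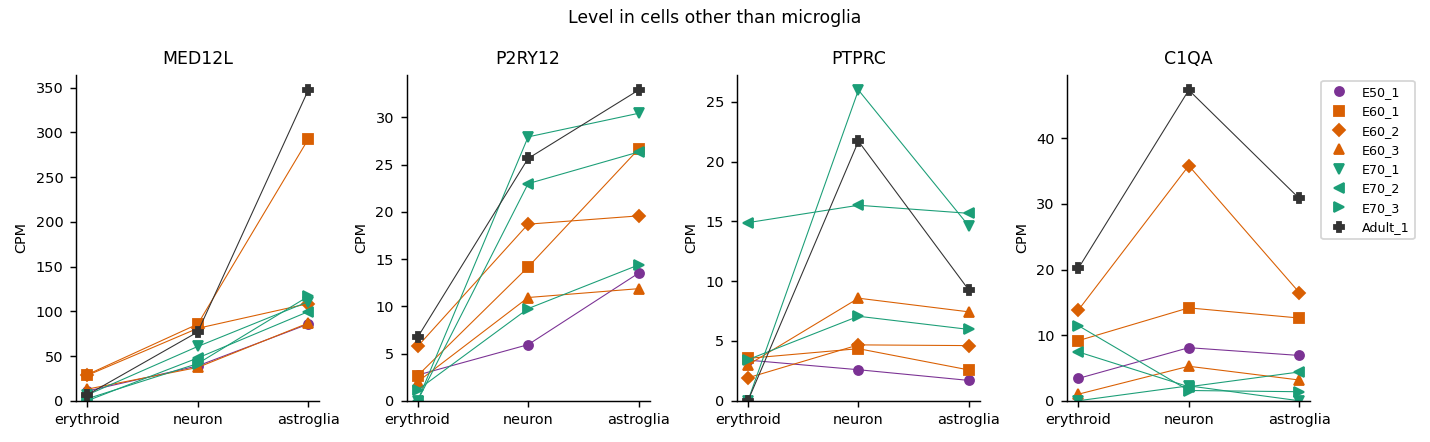
Level of MED12L, P2RY12, PTPRC and C1QA in erythroid-like, neuron-like and astroglia-like cells of the 8 whole cell libraries, in CPM, with a line for each library. Among the classes shown, MED12L and P2RY12 are lowest in erythroid-like and highest in astroglia-like cells in every one of these libraries. C1QA shows no such order.

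In nuclei the level outside microglia was higher still for P2RY12. It was at 69.9 CPM in the other nuclei at E70 and at 115 CPM in the adult, and in the E70 nuclei it made up 71.4% of all UMIs of the 7 genes outside microglia. In the neuron-like nuclei P2RY12 was at 67.4 CPM at E70 and 119.7 CPM in the adult, and MED12L at 204 and 291 CPM. PTPRC was at 14.6 and 38.1 CPM in the same nuclei, and C1QA at 3.28 and 5.44 CPM.

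In vascular-like cells AIF1 was above C1QA in every fetal whole cell library and below it in Adult_1 (21.3 against 36.1 CPM). C1QB was above AIF1 there in E60_1 (83.5 against 56.3 CPM), E60_2 (65.7 against 33.7 CPM) and Adult_1 (51.8 against 21.3 CPM). In the other whole cell libraries C1QB was below AIF1. In E50_1 AIF1 was at 29.3 CPM in vascular-like cells and at 5.43 CPM in neuron-like cells, in E60_3 at 22.4 and 4.01 CPM and in E70_3 at 36.5 and 1.31 CPM. C1QA was at 9.90 and 8.09 CPM, at 3.86 and 5.26 CPM and at 7.98 and 1.56 CPM in the same cells. In Adult_1 AIF1 was alike in both, at 21.3 and 21.7 CPM. Vascular-like cells here are those with markers of endothelial cells, mural cells or fibroblasts.

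Over 64 sums of UMIs, each of 1 cell class in 1 library with at least 20 cells, the 7 genes varied together to different degrees (Pearson's r of log2(CPM + 1), a description). Many of these sums share a library, its depth and its free RNA. C1QA and C1QB had an r of 0.911, C1QB and AIF1 0.919, and CSF1R 0.886 with C1QA and 0.864 with CX3CR1. P2RY12 had its highest r with PTPRC (0.792) and CX3CR1 (0.760) and its lowest with CSF1R (0.632). By the mean r with the 7 genes, the 10 genes most alike were 1 gene with no symbol (0.862), GPR34 (0.860), C1QC (0.856), CD53 (0.851), DENND1C (0.849), FCER1G (0.849), GIMAP4 (0.844), TYROBP (0.843), GMFG (0.841) and LAIR1 (0.840). GPR34, C1QC, CD53, FCER1G and TYROBP were among the 18 markers that named the microglia-like cells, so their likeness is in part set by the naming.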

How the data were processed

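Whole cells and nuclei were loaded on the 10X Genomics platform (3′ chemistry). The authors aligned the reads to pre-mRNA of the pig assembly Sscrofa11.1, introns included, and counted with Cell Ranger at its default settings, which also set the minimum depth of a cell. They deposited 1 matrix per library, and each of the deposited values is a UMI count that was not normalized. The 7 genes, the lists and the tests were chosen with earlier results of these data known. Of 22452 genes 7482 were listed by identifier only, and 987 of these were given a symbol from a table of gene names. CPM are the UMIs of a gene per 1000000 UMIs of the summed cells.

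Counts were scaled to 10000 per cell and log-transformed. From 3000 variable genes, with 233 listed genes left out, 50 principal components were merged by the steps of FastMNN and clustered by the Louvain method (resolution 1.6, igraph 0.11.9) into 47 clusters. Immune clusters were clustered again. Subclusters were named by the highest of the microglia, lymphocyte and granulocyte or monocyte lists, so the lists of other classes could not name them. They were called other immune where the microglial list was not the highest or its margin was under 1 (log2). No cells were filtered further and no doublet caller was run. Subclusters where markers of another class were at a mean log2 fold of at least 1 are called mixed (994 cells in 6 subclusters) and were left out in an alternative. A library with fewer than 10 microglia-like cells would have been left out of that test.

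UMIs were summed per library and tested with edgeR 4.0.16 (TMM, filterByExpr, quasi-likelihood test, Benjamini-Hochberg), with DESeq2 1.42.0 as an alternative, after tests on simulated data. E60 was compared with E70 only, over 3 libraries each. Permutation tests were exact and two-sided. The sources do not say whether libraries came from separate litters, so p-values measure the spread between these libraries. Genes named are the 7 members, those of 6 pathway lists that passed a test or else the 2 with the highest level in microglia-like cells, and the 10 most alike. MED12L, EMX1, PAX7, TNF, IL1A and the vascular values were named after their values were seen. Sequencing pools were read from the library numbers of the study. The number of brains pooled differs between that list and the labels for E70_1 and E70_3, and the labels were used. Intervals are at 95% and cover counting error only, since libraries also differ in ways counts do not show.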

Additional observations from a re-analysis of the deposited data

Results flagged for a closer look

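In microglia-like cells CX3CR1 was higher in nuclei than in whole cells at E70, with a ratio of 2.29 (95% CI 0.737 to 5.41), and lower in nuclei than in whole cells in the adult, with a ratio of 0.355 (CI 0.245 to 0.499). The opposite direction at the 2 stages was not tested, and the E70 value rests on 5 UMIs in 6 nuclei.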

How the results depend on the processing

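In whole libraries none of the 7 genes and 0 of 16743 genes passed with edgeR. DESeq2 called 4 and 2833, and leaving out 1 library gave 0 to 6 of the 7 and 0 to 5902 genes, with 5902 genes without E60_3 and 1570 without E70_3. In microglia-like cells none of the 7 passed under any alternative run, and the count over all genes was 696 with DESeq2, 569 with no filter, 1 with the gate of 4 markers and 0 to 1158 when 1 library was left out (1158 without E70_3, 72 without E60_3, 2 without E60_1). At an unadjusted p under 0.05 (edgeR) were 5 of the 7 genes with the gate, beside 2797 of 13631 genes in all. There were 4 without E60_3 (3308 of 11025), 3 without mixed subclusters (1858 of 8775) and 1 with no filter (3122 of 17652), against 0 in the main setting. With the gate all 7 genes were lower at E70, with a median log2 fold change of -1.84, against -0.45 in the main setting. The cause was not tested. All 7 genes kept a negative fold change in whole libraries, except CX3CR1 with E60_3 as the only E60 library (0.068). In microglia-like cells that setting reversed AIF1 (0.78), C1QA (0.51), C1QB (0.98), CSF1R (0.65), CX3CR1 (0.73) and PTPRC (-0.18). P2RY12 reversed with no filter (-0.0025), with the gate (-0.72) and without mixed subclusters (-0.29), and PTPRC with the gate (-0.34). When 1 library was left out, CSF1R ranged from -0.49 to 0.10, P2RY12 from -0.52 to 0.38 and PTPRC from -0.083 to 1.012. The relation of the level in other cells fell to r of 0.501 (exact permutation p = 0.205) in cells without a microglial marker, where CSF1R turned to -0.128. The share difference kept its direction under all alternatives run. It was 4.59 points lower at E70 with the gate (p = 0.3, exact permutation) and 2.65 without mixed subclusters. Deviations of same-numbered libraries from their stage means correlated at -0.171, 0.0322 and -0.126 in whole libraries. With so few libraries this cannot show whether the replicate numbers pair them. E60_1 and E70_1 shared a sequencing pool, as did E60_3 and E70_3. With the replicate block 0 of the 7 genes and 0 genes in all passed in both comparisons, and the share gave p = 0.25 (exact permutation). Leaving out mixed subclusters, E60_3 as the only E60 library for the share, and both reclusterings of the adult ratio were chosen after seeing the data.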
